A study of Homo sapiens with 5 samples.

Results

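S phase cells were studied in 5 single-cell RNA libraries of MDA-MB-468, a long-established line of human breast cancer cells of the triple-negative type. They were chosen by their RNA. A score was formed for each cell from the summed UMIs (unique molecular identifiers, 1 per captured RNA molecule) of MCM2, MCM4, MCM5, MCM6, PCNA, TYMS, GINS2, CLSPN, CDC6 and RRM2 per 10000 UMIs of the cell, and the top 10% of each library were taken. This gave 1489 S phase cells of 14911 kept cells, out of 15483 barcodes. Kept cells had 5000 UMIs or more, 1000 genes or more, and no more than 20% of their UMIs from mitochondrial transcripts. Because the top 10% was taken in each library, every library has S phase cells by construction, and DNA synthesis itself was not measured.

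The S phase cells numbered 370 of 3700 in untreated cells at 0 h, 299 of 2996 in cells given PF0517515 for 6 h, 186 of 1868 in cells given it for 72 h, 346 of 3462 in recovery cells after 72 h of PF0517515, and 288 of 2885 in untreated cells at 72 h. PF0517515 is the acetyl-CoA carboxylase (ACC) inhibitor of the study's title. ACC makes malonyl-CoA, the building block of fatty acid synthesis. Dose, vehicle and the length of recovery are not in the labels, and there was no untreated 6 h library. All cells were trypsinised from culture and are 1 cell line, and each group is 1 library. With 1 library per group and cells chosen on the same RNA that was then compared, no difference has a test. Values in parentheses are exact 95% intervals that cover counting error only.

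S phase is the part of the cell cycle in which DNA is copied. In the general scheme, cyclin E-CDK2 releases E2F transcription factors from the RB protein in late G1. E2F factors then turn on the genes of the replication machinery. RB protein was not measured here, and whether this step operates in this cell line was not tested. ORC, CDC6 and CDT1 load the MCM helicase on origins, CDC45 and GINS start it, polymerases copy the DNA on the PCNA sliding clamp, and ribonucleotide reductase and thymidylate synthase supply the building blocks. Histones are made at the same time to package the new DNA, and cyclin B and the mitotic genes follow in G2 and M.

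The score genes are classic E2F targets, so the sequences around their start sites were searched for E2F-type words. The words TTTCCCGC, TTTCGCGC, TTTGCCGC and TTTGGCGC were searched on both strands of the 300 bases from 250 before to 50 after each gene's start, as given by RefSeq on GRCh38.p14. Of the 10 score genes, 8 had a sequence in the table and 7 of these held a word. RRM2 held none. Of the 88 matched genes of the 5 other S phase gene lists, 23 (26.1%) held a word, and so did 7 of 15 matched genes of the G1/S control list (46.7%). Among all 27305 promoters of that length, 908 (3.33%) did. The word TTTGAA, the core of the cell cycle homology region known from promoters of mitotic genes, stood in none of the 8 score promoters and in 33 of 49 promoters of the G2/M list (67.3%), against 15.4% of all promoters. A match is a string of letters and no measurement of binding.

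MCM6 and PCNA show what such a promoter looks like. The capitals mark the words, the stretches are read 5′ to 3′ on the gene's strand, and both genes lie on the minus strand of GRCh38.p14. The MCM6 stretch is at chr2:135876496-135876555 and holds TTTGGCGC on the gene's strand overlapping TTTCGCGC on the other strand. The PCNA stretch is at chr20:5126648-5126707 and holds TTTCCCGC on the other strand.
MCM6: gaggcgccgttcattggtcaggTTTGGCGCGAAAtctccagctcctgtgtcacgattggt
PCNA: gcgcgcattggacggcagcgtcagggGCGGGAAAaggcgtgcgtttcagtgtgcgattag

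The values that chose the cells differed widely between libraries. The score needed to enter the top 10% was 20.3 UMIs per 10000 at 0 h untreated, 18.2 after 6 h of inhibitor, 5.82 at 72 h of inhibitor, 7.36 in recovery and 12.8 at 72 h untreated. The median score was 22.3 in S phase cells against 9.82 in the rest at 0 h untreated, 20.4 against 8.10 after 6 h of inhibitor, 7.40 against 1.67 at 72 h of inhibitor, 8.70 against 3.28 in recovery and 14.4 against 3.98 at 72 h untreated. The median S phase cell thus scored below the median of the remaining 0 h cells both in recovery and at 72 h of inhibitor. The 10th cell above and the 10th below the threshold scored 20.4 and 20.2 at 0 h untreated, 18.3 and 18.1 after 6 h of inhibitor, 5.92 and 5.76 at 72 h of inhibitor, 7.43 and 7.30 in recovery, and 12.9 and 12.8 at 72 h untreated. No gap in score separated S phase cells from their neighbours in any library. At 0 h untreated, 41.7% of all cells reached the threshold of the 72 h untreated library, so most cells with a high score there were counted in the rest.

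**Figure D1:**
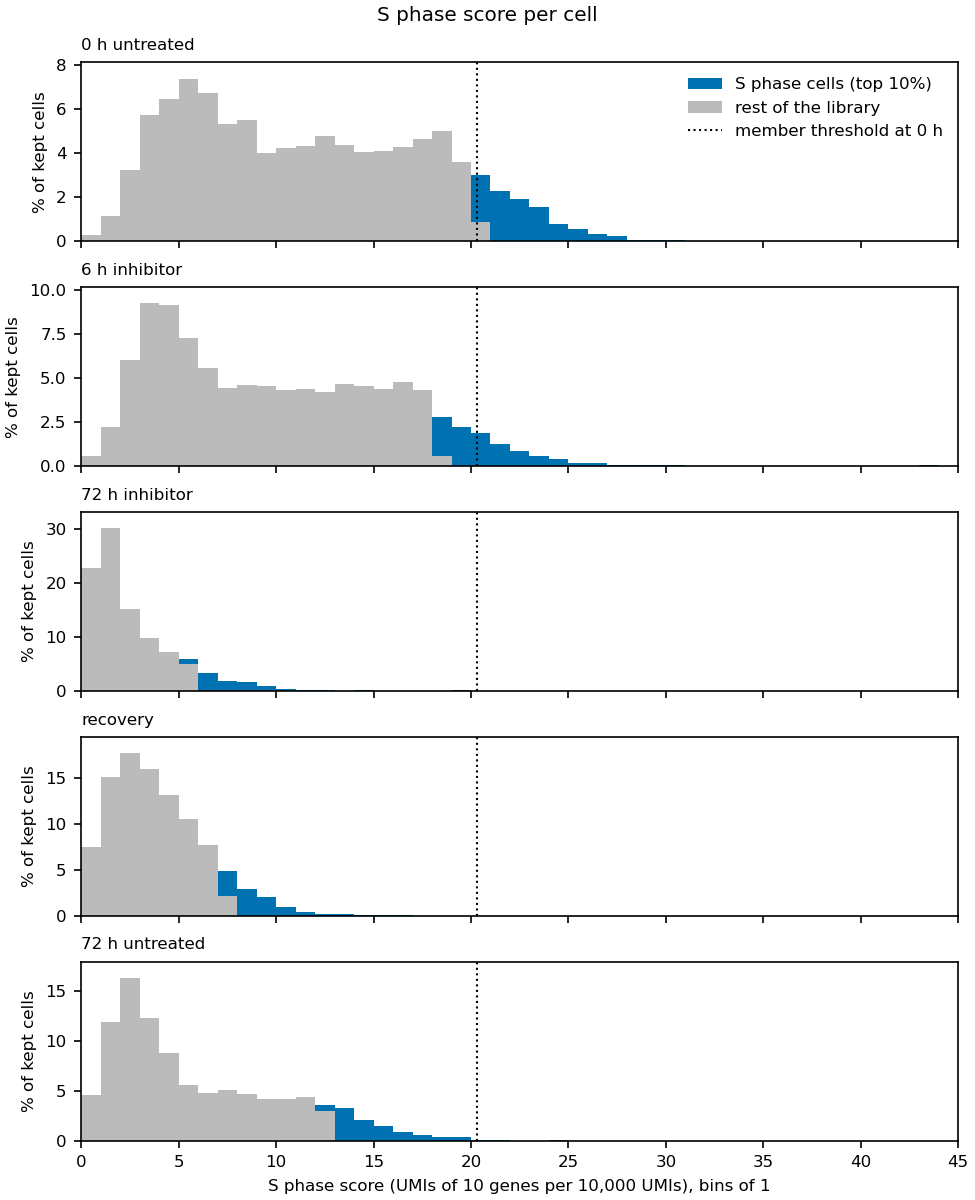
S phase score of each kept cell as a histogram, 1 panel per library. The x axis is the score in UMIs per 10000 in bins of 1, the y axis the percent of kept cells, blue the top 10% called S phase cells, grey the rest, and the dotted line the 0 h threshold of 20.3. Blue cells lie at 20.3 and above at 0 h untreated, and from 5.82 up at 72 h of inhibitor.

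A single threshold was set to compare the libraries directly. Each cell was thinned at random to 5000 UMIs, and the threshold was that of the top 10% at 0 h, 11 UMIs of the score genes. It was reached by 465 of 3700 cells at 0 h untreated (12.6%, 11.5 to 13.7, above 10% because of ties), by 250 of 2996 after 6 h of inhibitor (8.34%, 7.38 to 9.39) and by 3 of 1868 at 72 h of inhibitor (0.161%, 0.0331 to 0.469). In recovery it was reached by 0 of 3462 cells (0%, 0 to 0.106), and at 72 h untreated by 52 of 2885 (1.80%, 1.35 to 2.36). Cells as rich in replication mRNA as the top of the 0 h library were thus rare in all 3 late libraries, untreated cells included. Without thinning, 10.0% of cells reached the threshold of 20.3 at 0 h untreated, 5.14% after 6 h of inhibitor, 0.107% at 72 h of inhibitor, 0.0289% in recovery and 0.173% at 72 h untreated.

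S phase cells were not simply the deepest cells. Their median UMI count was 30579.5 against 28840.5 in the rest at 0 h untreated, 34427 against 33611 after 6 h of inhibitor, 45114 against 42040 at 72 h of inhibitor, 23919.5 against 27409.5 in recovery and 31258 against 28924 at 72 h untreated. Of the S phase cells at 72 h of inhibitor, 9 were also among the 5% of cells with most UMIs, or 4.84% of them, and between 0% and 1.73% were so elsewhere. A score rests on few molecules where the genes are low: the median S phase cell had 34.5 UMIs of the score genes at 72 h of inhibitor and 21.5 in recovery, against 47 at 72 h untreated, while it had 72 after 6 h of inhibitor against 69 at 0 h untreated. When cells were thinned to 5000 UMIs and scored again, between 49.1% of S phase cells in recovery and 60.1% at 72 h untreated were still in the top 10%. Split into 2 sets of 5 genes, the score correlated across cells with r = 0.41 in recovery and 0.66 to 0.68 in the other libraries, as a description over cells that share depth. No barcode was shared between libraries among S phase cells. Of 14 markers of blood, endothelial, fibroblast and red cells, none reached 10 CPM (UMIs per 1000000 UMIs summed over cells) in S phase cells of any library. The highest value was 8.97 CPM, for COL1A1 in recovery, and LYZ, COL1A2, DCN, PDGFRB and HBB had no UMI in S phase cells. The epithelial marker EPCAM stood at 357 to 463 CPM there.

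The make-up of the score was not the same in every library. RRM2, the regulated subunit of ribonucleotide reductase, had 426 CPM in S phase cells against 164 in the rest at 0 h untreated, 383 against 148 after 6 h of inhibitor, 64.2 against 12.5 at 72 h of inhibitor, 243 against 71.5 in recovery and 342 against 96.3 at 72 h untreated. S phase cells at 72 h of inhibitor therefore held less RRM2 mRNA than the remaining cells at 0 h, 6 h and 72 h untreated and in recovery. RRM2 gave 8.24% of their score UMIs (7.58 to 8.94), against 22.8% at 72 h untreated (22.1 to 23.5), 26.9% in recovery (26 to 27.9), and 18.7% at 0 h untreated and 18.4% after 6 h of inhibitor. TYMS, thymidylate synthase, stood out in the other way, with 167 against 40.8 CPM at 72 h of inhibitor and 109.5 against 40.0 CPM in recovery, and gave 21.4% and 12.1% of the score UMIs of these S phase cells. PCNA, the sliding clamp, gave a similar share everywhere, between 21.4% and 25.9%.

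The 5 libraries also differed in how far the score genes stood above the rest. CLSPN, claspin, which carries the checkpoint signal at stalled forks, was 6.19-fold higher in S phase cells at 72 h of inhibitor, and 2.41- to 3.34-fold higher in the other libraries. CDC6, the loader of the helicase, had 43.5 against 8.56 CPM at 72 h of inhibitor, 40.9 against 15.3 in recovery and 47.0 against 18.2 at 72 h untreated. CDC6 in S phase cells thus differed little among the late libraries, while it was lowest in the rest at 72 h of inhibitor. MCM6, a helicase subunit, had 117 against 58.1 CPM at 0 h untreated, 115 against 56.7 after 6 h of inhibitor, 49.6 against 20.5 at 72 h of inhibitor, 51.2 against 25.8 in recovery and 77.6 against 32.1 at 72 h untreated.

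**Figure D2:**
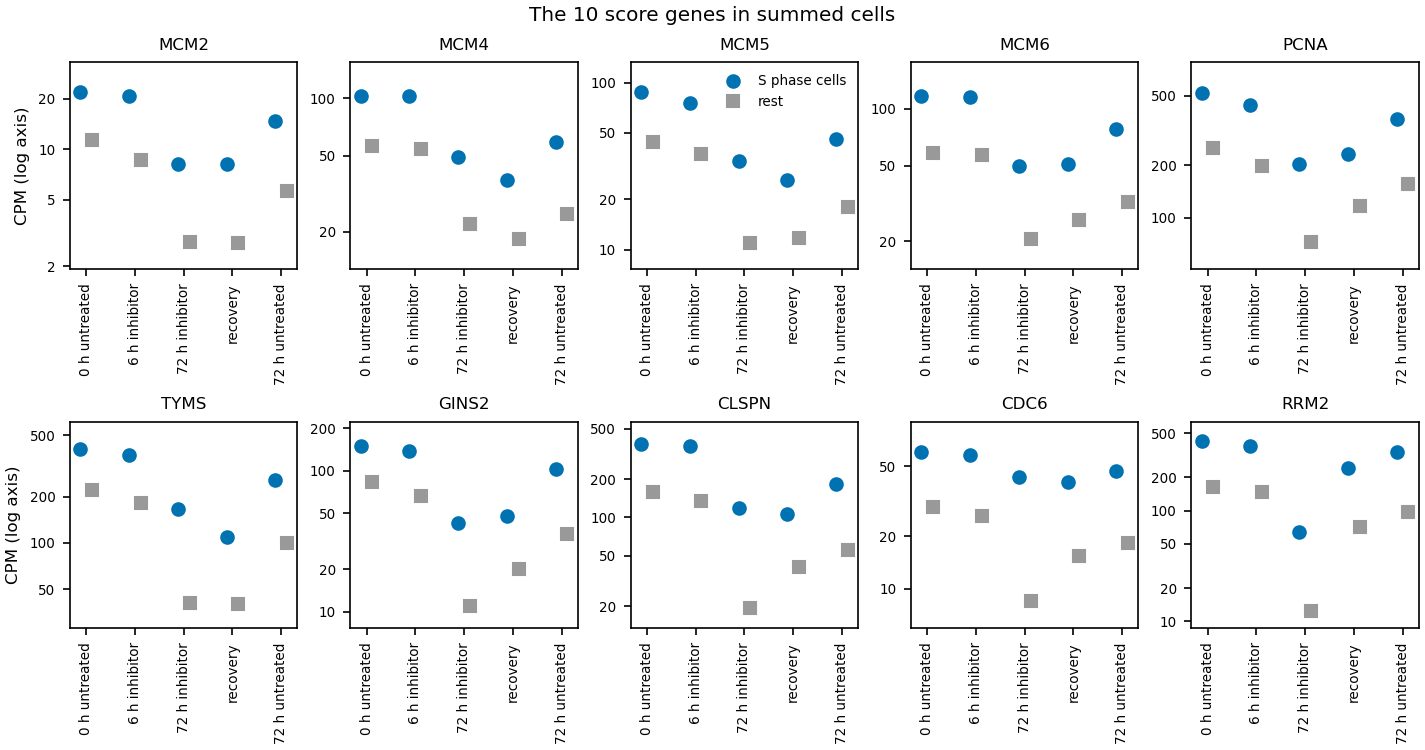
CPM of the 10 score genes in summed S phase cells (blue circles) and in the summed rest of the library (grey squares), 1 panel per gene on a log axis of its own, libraries along x. RRM2 in S phase cells at 72 h of inhibitor, at 64.2 CPM, lies below the grey squares of the other 4 libraries, while CDC6 circles lie between 40.9 and 60.1 CPM throughout.

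The replication machinery outside the score was then compared between S phase cells and the rest. The UMIs of each set of cells were summed and scaled to CPM, and genes with a mean of at least 10 CPM over the 10 sums were kept, 8899 of them outside the score. The score was chosen on the same cells, so these values describe the cells and are not a test of them. Of all measured genes, 72 were more than 1.5-fold higher in S phase cells in all 5 libraries (0.809%), and 30 of these belonged to the 95 measured genes of 5 lists of replication and repair genes. In single libraries the percent of all genes more than 1.5-fold higher was 1.76 at 0 h untreated, 2.0 after 6 h of inhibitor, 6.78 at 72 h of inhibitor, 2.16 in recovery and 2.80 at 72 h untreated. Among the 95 genes, 38 were so at 0 h untreated, 49 after 6 h of inhibitor, 70 at 72 h of inhibitor, 43 in recovery and 65 at 72 h untreated. Of the 95, 87 were higher by any amount in all 5 libraries, against 25.3% of all genes. The median log2 ratio of the 95 genes was 0.52 at 0 h untreated, 0.62 after 6 h of inhibitor, 0.98 at 72 h of inhibitor, 0.57 in recovery and 0.83 at 72 h untreated, while over all genes it was 0.17 at 72 h of inhibitor, 0.10 in recovery and between -0.00 and 0.03 in the other libraries. Median-of-ratios scaling would lower every log2 ratio of S phase cells to rest by 0.21 at 72 h of inhibitor and by 0.14 in recovery, and by at most 0.04 elsewhere.

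Licensing and firing factors were prominent. MCM10, which helps to start the helicase, had 58.4 CPM in S phase cells against 28.9 in the rest at 0 h untreated, 61.3 against 27.8 after 6 h of inhibitor, 27.0 against 5.48 at 72 h of inhibitor, 26.6 against 9.71 in recovery and 49.1 against 15.7 at 72 h untreated. CDC45, its partner in the active helicase, had 92.1 against 46.2 CPM at 0 h untreated, 87.5 against 42.7 after 6 h of inhibitor, 42.8 against 8.43 at 72 h of inhibitor, 39.8 against 16.6 in recovery and 70.3 against 24.5 at 72 h untreated. Both genes were lowest of all in the rest at 72 h of inhibitor, where the fold was largest. ORC6, a subunit of the origin recognition complex, had 95.6 against 27.5 CPM at 72 h of inhibitor and 100.2 against 64.9 in recovery, against 65.8 and 34.3 in S phase cells and rest at 72 h untreated. Of 19 measured licensing and helicase genes, 17 were higher in S phase cells in all 5 libraries.

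All 22 measured genes of polymerases, clamp loaders and RPA were higher in S phase cells in every library. DSCC1, a clamp loader subunit, had 37.0 against 17.7 CPM at 0 h untreated, 34.5 against 17.3 after 6 h of inhibitor, 21.2 against 7.04 at 72 h of inhibitor, 20.1 against 11.6 in recovery and 25.8 against 10.8 at 72 h untreated. FEN1, the nuclease that trims Okazaki fragments, had 58.4 against 18.8 CPM at 72 h of inhibitor and 93.7 against 40.7 at 72 h untreated. The deoxynucleotide genes outside the score stood closer to the rest, with medians of 0.22 to 0.48 on the log2 scale over the libraries, and 11 of 13 were higher in all 5. TK1, thymidine kinase, was an exception in recovery: it had 185 CPM in S phase cells and 98.7 in the rest there, against 128 and 75.1 at 72 h untreated and 89.3 and 25 at 72 h of inhibitor.

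Repair genes gave the largest list median of the 5 lists at 72 h of inhibitor, 1.31, against 0.83 at 72 h untreated. EXO1, a 5′ exonuclease of mismatch and break repair, had 52.7 CPM in S phase cells against 22.3 in the rest at 0 h untreated, 60.9 against 25 after 6 h of inhibitor, 32.4 against 5.32 at 72 h of inhibitor, 36.8 against 13.3 in recovery and 41.4 against 12.3 at 72 h untreated. That is 6.08-fold at 72 h of inhibitor (5.19 to 7.11) and 2.36- to 3.36-fold elsewhere. RAD54L, a motor of homologous recombination, and BRIP1, a helicase that partners BRCA1, were likewise more than 1.5-fold higher in all 5 libraries. Chromatin genes joined them: HELLS, a remodeller needed for DNA methylation, had 53.4 against 18.1 CPM at 72 h of inhibitor, 43.0 against 20.9 in recovery and 99.6 against 42.3 at 72 h untreated. DTL, which directs the PCNA-dependent ubiquitin ligase, had 57.8 against 14.2 CPM at 72 h of inhibitor, 75.3 against 36.3 in recovery and 63.3 against 23.9 at 72 h untreated.

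Genes that act upstream, at the G1/S switch, were also higher in S phase cells, 15 of 19 in all 5 libraries. E2F1, the activating E2F factor, had 72.3 CPM in S phase cells against 40.3 in the rest at 0 h untreated, 76.1 against 35.2 after 6 h of inhibitor, 47.9 against 12.4 at 72 h of inhibitor, 31.4 against 15.7 in recovery and 51.1 against 22.5 at 72 h untreated. CCNE2, cyclin E2, had 51.5 against 27.6 CPM at 0 h untreated, 50.2 against 19.7 after 6 h of inhibitor, 8.51 against 3.01 at 72 h of inhibitor, 15.6 against 7.30 in recovery and 22.0 against 9.15 at 72 h untreated. S phase cells at 72 h of inhibitor held nearly the E2F1 of those at 72 h untreated but less CCNE2. In a shared range of scores, described further on, the CCNE2 gap was smaller, with 8.25 CPM at 72 h of inhibitor and 11.6 at 72 h untreated. All cells of the 72 h untreated library in that range belonged to its rest. FAM111B, one of the 10 genes with the steadiest difference, was low in the same libraries, with 24.4 against 6.09 CPM at 72 h of inhibitor and 19.8 against 9.11 in recovery, against 271 and 112 CPM in S phase cells and rest at 0 h untreated. CDK inhibitors and arrest genes showed no common direction. Their list medians lay between -0.05 and 0.17, and CDKN1A, p21, had 8.15 against 4.97 CPM at 72 h of inhibitor and 37.7 against 41.3 in recovery. RB1, the gene of the RB protein, lay between 7.56 CPM at 0 h untreated and 12.3 in recovery in S phase cells. In the rest it lay between 7.01 CPM at 72 h of inhibitor and 12.2 in recovery. Whether RB protein held back E2F factors in these cells was not tested.

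**Figure D3:**
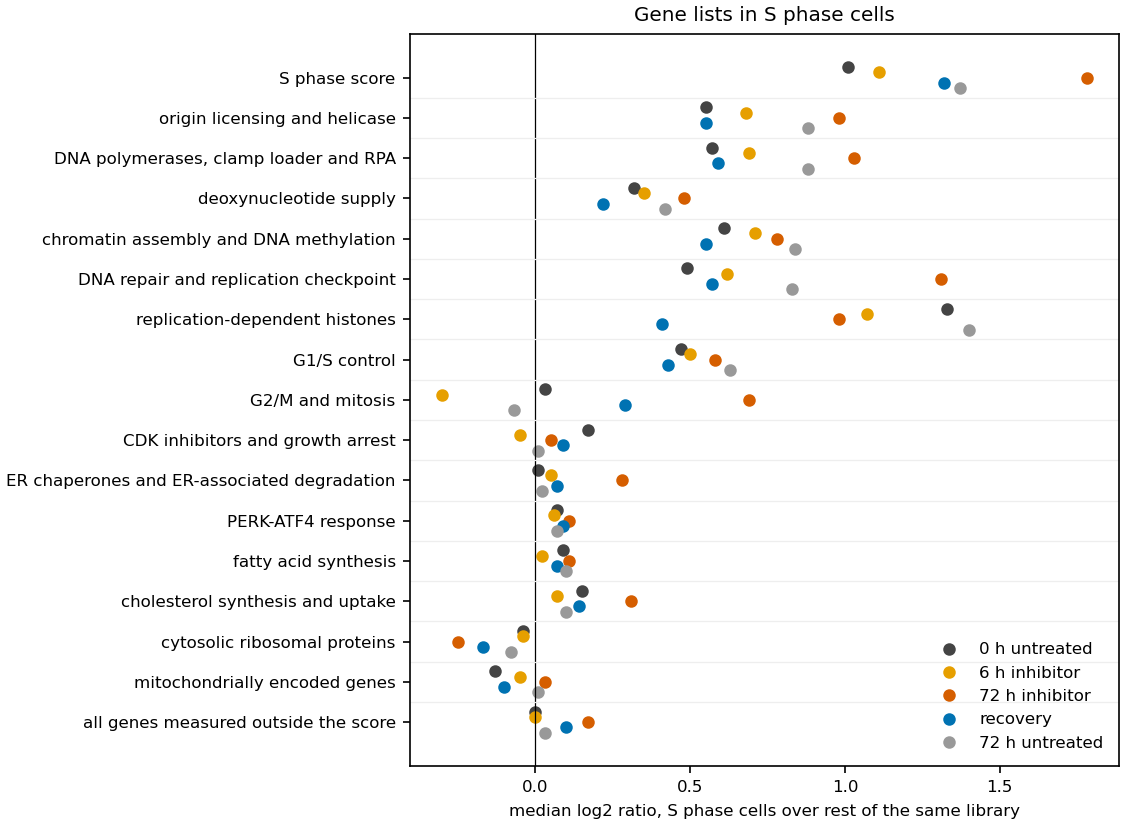
Median log2 ratio of S phase cells to the rest of the same library for 16 gene lists and for all 8899 genes measured outside the score, 1 dot per library. The vertical line marks 0. Dots of replication, repair and G1/S lists lie right of it in all 5 libraries, histone dots run between 0.41 in recovery and 1.40 at 72 h untreated, and G2/M dots lie on both sides.

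Replication-dependent histones separated recovery from the other libraries. Most of these mRNAs end in a stem-loop in place of a poly(A) tail, and the libraries were made from polyadenylated RNA, so they are captured only in part. The genes are also near-identical copies, so the value of a single histone gene is uncertain. Of 26 listed genes, 16 passed the filter. The summed level of all 26 was 4599.9 CPM in S phase cells against 1851 in the rest at 0 h untreated, 3186 against 1569 after 6 h of inhibitor, 1116 against 637 at 72 h of inhibitor, 1468 against 1102 in recovery and 3651 against 1479 at 72 h untreated. HIST1H4C, a histone H4 gene, had 2298 against 974 CPM at 0 h untreated, 1678 against 857 after 6 h of inhibitor, 521 against 232 at 72 h of inhibitor, 569 against 429.8 in recovery and 1724 against 679 at 72 h untreated. In recovery, S phase cells and the rest were thus close in histone mRNA, with a list median of 0.41, against 0.98 to 1.40 in the other libraries. The linker histone HIST1H1B had 72.7 against 48.3 CPM in recovery and 317 against 97.8 at 72 h untreated.

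Cells were then ranked by score into deciles within each library, decile 10 being the S phase cells. The 5 replication and repair lists were higher in every decile than in the one before, in all 5 libraries. Histone mRNA was flat over the lower deciles and then climbed at 0 h untreated, 6 h of inhibitor and 72 h untreated. In decile 1 it stood at 387 CPM at 0 h untreated, 434 at 72 h of inhibitor, 739 in recovery and 624 at 72 h untreated. The S phase cells of recovery, at 1468 CPM, had the lowest ratio to decile 1 of their library.

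G2/M genes took another course. They were highest in decile 3 at 0 h untreated (7068 CPM, summed over 56 genes) and after 6 h of inhibitor (6942), in decile 9 at 72 h of inhibitor (5465), in decile 7 in recovery (9679) and in decile 6 at 72 h untreated (9029.8). S phase cells summed to 5327 CPM of these genes against 6017 in the rest at 0 h untreated, 4229.7 against 5718 after 6 h of inhibitor, 4338 against 3043 at 72 h of inhibitor, 8451 against 7621 in recovery and 5242 against 6154 at 72 h untreated. S phase cells at 72 h of inhibitor and in recovery thus carried more mitotic mRNA than the rest of their library, those of the other libraries less. Overlap with the top 10% of cells by the G2/M list is 10% over all kept cells by construction, and S phase cells exceeded that share in no library. At 72 h of inhibitor 16 of 186 S phase cells were among these cells (8.60%, 5.0 to 13.6). In recovery 22 of 346 were (6.36%, 4.03 to 9.47), and at 72 h untreated 6 of 288 (2.08%, 0.768 to 4.48). At 0 h untreated 2 S phase cells were, and after 6 h of inhibitor 1.

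**Figure D4:**
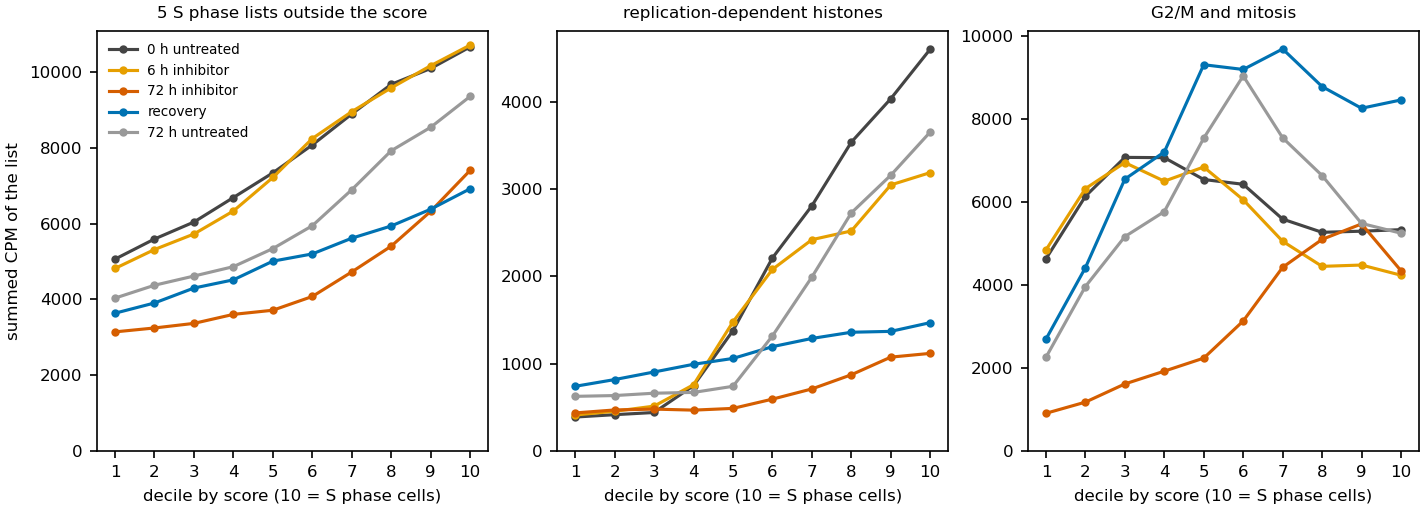
Summed CPM of the 5 replication and repair lists, of replication-dependent histones and of G2/M genes in cells ranked by score into deciles within each library, 1 line per library. Decile 10 holds the S phase cells. The replication lists climb throughout, histones reach 4599.9 CPM at 0 h untreated and 1468 in recovery, and G2/M genes peak before decile 10 in every library.

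Of the 56 G2/M genes, 46 were higher in S phase cells than in the rest at 72 h of inhibitor, 31 of them by more than 1.5-fold, and 43 in recovery, 8 of them by more than 1.5-fold. The counts of higher genes were 30 at 0 h untreated, 15 after 6 h of inhibitor and 27 at 72 h untreated. Of all 8899 genes, 6882 were higher at 72 h of inhibitor and 6366 in recovery. There were 4358 at 0 h untreated, 4521 after 6 h of inhibitor and 4974 at 72 h untreated. The G2/M counts of higher genes at 72 h of inhibitor and in recovery thus lay near the share of all genes. More than 1.5-fold higher were 6.78% and 2.16% of all genes in these libraries. Cyclin B1 and securin were not among the higher genes. CCNB1, cyclin B1, had 35.8 CPM in S phase cells against 136 in the rest at 0 h untreated, 19.3 against 112 after 6 h of inhibitor, 36.8 against 46.9 at 72 h of inhibitor, 118 against 155 in recovery and 44.4 against 158 at 72 h untreated. PTTG1, securin, had 138 against 453 CPM at 0 h untreated, 90 against 327 after 6 h of inhibitor, 173 against 191 at 72 h of inhibitor, 605 against 724 in recovery and 197 against 561 at 72 h untreated. Both were lower in S phase cells in all 5 libraries, by a wide margin at 0 h untreated, 6 h of inhibitor and 72 h untreated and by little at 72 h of inhibitor and in recovery. Over the alternative settings the log2 ratio of CCNB1 took either sign in those last libraries, with -0.65 to 0.40 at 72 h of inhibitor and -0.89 to 0.09 in recovery. Leaving out cells high in G2/M genes before choosing S phase cells moved the list median at 72 h of inhibitor to 1.34, against 0.69 with all cells. It turned that after 6 h of inhibitor to 0.04, against -0.30. This filter uses the same list and takes out mostly cells of the rest, so it raises the ratio by construction. Choosing with MCM2, MCM5, PCNA, GINS2 and CDC6 alone turned the median in recovery to -0.05, against 0.29, so the direction of the G2/M list in recovery rests on the choice of score genes.

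Few genes were lower in S phase cells everywhere. In single libraries the percent of all genes more than 1.5-fold lower was 0.888 at 0 h untreated, 1.28 after 6 h of inhibitor, 0.438 at 72 h of inhibitor, 0.225 in recovery and 0.719 at 72 h untreated. Only HIST3H2A, a histone gene outside the main clusters, was more than 1.5-fold lower in all 5 libraries (0.0112% of 8899 genes), with 19.4 against 70.2 CPM at 72 h of inhibitor and 15 against 28.5 at 72 h untreated. Among the 10 genes with the steadiest lower level were KRT19, a keratin of luminal epithelium, and SCO2, a copper chaperone of cytochrome oxidase. KRT19 had 3238 against 3992 CPM at 0 h untreated, 2476 against 3252 after 6 h of inhibitor, 1198 against 1950.3 at 72 h of inhibitor, 1347 against 1744 in recovery and 1661 against 2394 at 72 h untreated. Ribosomal protein genes were slightly lower, 22 of 30 in all 5 libraries against 7.71% of all genes, with medians of -0.25 at 72 h of inhibitor and -0.17 in recovery, against -0.08 at 72 h untreated.

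The study's title names endoplasmic reticulum (ER) stress, so genes of that response were read in S phase cells. HSPA5, the main ER chaperone, had 61.8 CPM in S phase cells against 76.3 in the rest at 0 h untreated, 62.7 against 76.8 after 6 h of inhibitor, 482 against 325 at 72 h of inhibitor, 875 against 835 in recovery and 111 against 131 at 72 h untreated. HERPUD1, part of ER-associated degradation, had 37.5 against 41.7 CPM at 0 h untreated, 61.7 against 71.3 after 6 h of inhibitor, 375 against 268 at 72 h of inhibitor, 741 against 790.4 in recovery and 89.9 against 105 at 72 h untreated. At 72 h of inhibitor S phase cells thus held 1.48-fold the HSPA5 mRNA of the rest (1.43 to 1.53), while at 72 h untreated they held 0.849-fold (0.795 to 0.904). In recovery the HSPA5 ratio was 1.05 (1.02 to 1.07), and it took either sign among the alternative settings, with log2 ratios of -0.07 to 0.17. MANF, a secreted ER stress protein, had 171 against 112 CPM at 72 h of inhibitor, 193 against 206 in recovery and 74.2 against 65.8 at 72 h untreated. Of 22 measured ER chaperone and degradation genes, 20 were higher in S phase cells at 72 h of inhibitor, where 6882 of all 8899 genes were, and the list median was 0.28 beside 0.17 for all genes.

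Genes of the PERK-ATF4 branch, which slows translation and turns on amino acid and stress genes, differed little between S phase cells and the rest. Their list median lay between 0.06 and 0.11 in the 5 libraries. DDIT3, the factor CHOP, had 18.8 CPM in S phase cells against 18.5 in the rest at 0 h untreated, 72.6 against 71.5 after 6 h of inhibitor, 218 against 213 at 72 h of inhibitor, 459 against 433 in recovery and 68.6 against 58.7 at 72 h untreated. GADD45G, a growth arrest gene, differed most at 72 h of inhibitor, with 137 CPM in S phase cells and 329 in the rest. It had 131 against 117 CPM in recovery, 4.04 against 5.19 at 0 h untreated, 4.08 against 4.47 after 6 h of inhibitor and 8.71 against 8.63 at 72 h untreated. Of the drug's own pathway, ACACA, the cytosolic ACC enzyme, had 35.2 against 32.5 CPM at 72 h of inhibitor and 61.6 against 57.2 at 72 h untreated. FASN, fatty acid synthase, had 48.0 against 38.3 and 82.6 against 77.6 CPM in these libraries, and list medians of fatty acid synthesis lay between 0.02 and 0.11.

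**Figure D5:**
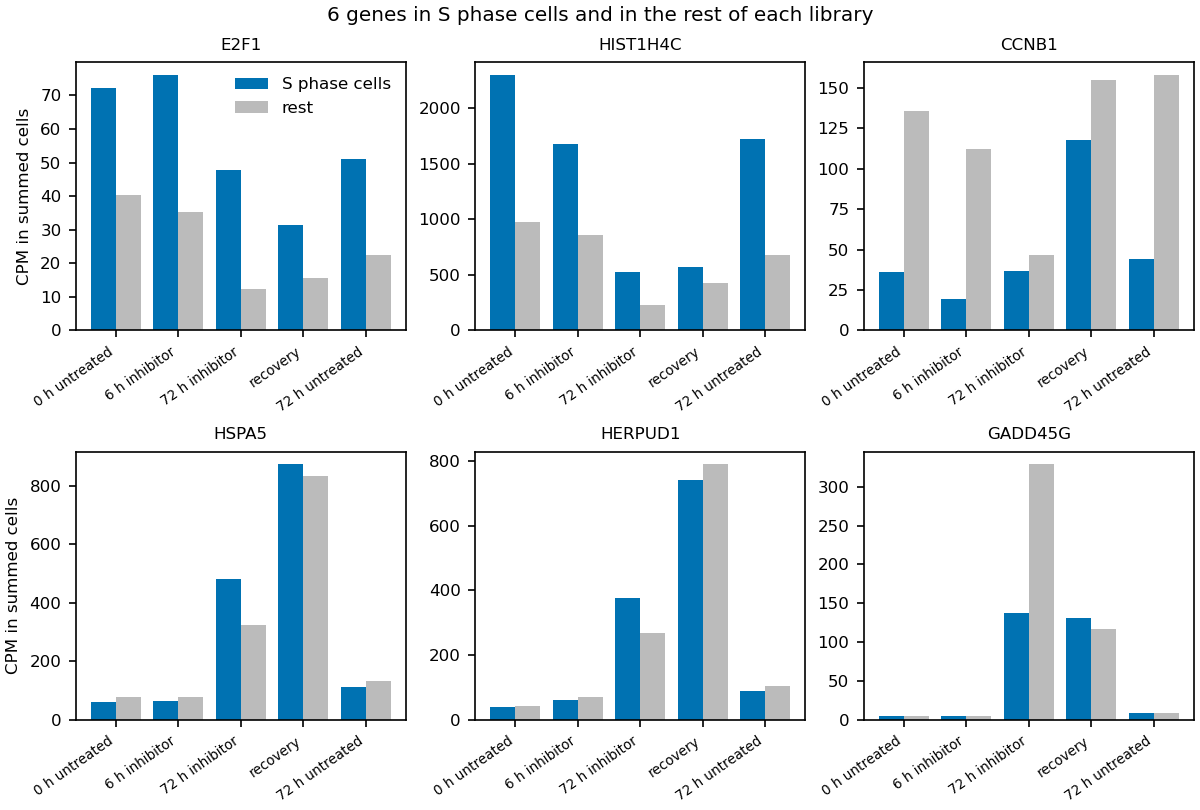
CPM of E2F1, HIST1H4C, CCNB1, HSPA5, HERPUD1 and GADD45G in summed S phase cells (blue bars) and in the summed rest of each library (grey bars), libraries along x. GADD45G stands at 137 in S phase cells and 329 in the rest at 72 h of inhibitor, and HSPA5 at 482 and 325.

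S phase cells were next compared between libraries, beside the rest of the same libraries. Called here means more than 2-fold apart among genes with a mean of at least 10 CPM over both sums. Of all genes, 49.1% were higher by any amount in S phase cells for 72 h of inhibitor over 72 h untreated. The share was 57.9% for 6 h of inhibitor over 0 h and 45.5% for recovery over 72 h of inhibitor. It was 44.1% for recovery over 72 h untreated and 60.1% for 72 h over 0 h untreated. Several comparisons share a library, so they are not independent of each other. Median-of-ratios scaling would subtract 0.28 from every log2 ratio of S phase cells for 72 h over 0 h untreated, -0.14 for recovery over 72 h untreated, 0.11 for 6 h of inhibitor over 0 h, -0.08 for recovery over 72 h of inhibitor and -0.05 for 72 h of inhibitor over 72 h untreated. Each library chose its own top 10%, so cells compared here differ in score.

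Between 72 h of inhibitor and 72 h untreated, S phase cells differed in histones, GADD45G, several ER chaperones and the score gene RRM2, and less in most other replication genes. Of 9061 genes, 293 (3.23%) were more than 2-fold higher at 72 h of inhibitor in S phase cells and 400 (4.41%) lower, against 158 (1.74%) and 630 (6.95%) in the rest of the same libraries. Of the 96 measured genes of the replication and repair lists, 78 were lower at 72 h of inhibitor in S phase cells but 4 by more than 2-fold, with a median of -0.34. In the rest, 20 of them were more than 2-fold lower, with a median of -0.56. All 16 measured histone genes were lower in S phase cells at 72 h of inhibitor, 14 by more than 2-fold, and the median was -1.73. Histone mRNA was thus lower by more than other replication mRNA. HIST1H4C was 3.31-fold lower and HIST1H1B 5.86-fold lower, while E2F1 was at 47.9 CPM at 72 h of inhibitor and 51.1 at 72 h untreated, a ratio of 0.939 (0.820 to 1.07).

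RRM2 was 5.33-fold lower in S phase cells at 72 h of inhibitor than at 72 h untreated, and the other 9 score genes were lower by between 1.08-fold for CDC6 and 2.43-fold for GINS2. These genes chose the cells, at thresholds of 5.82 and 12.8, so their values describe the choice. In the rest RRM2 had 12.5 CPM at 72 h of inhibitor and 96.3 at 72 h untreated. The median of the 10 score genes was -0.64 in S phase cells and -1.10 in the rest. The lower level was thus not particular to S phase cells. ESCO2, which holds sister chromatids together during S phase, had 12.2 CPM at 72 h of inhibitor and 44.7 at 72 h untreated. POLE3, a small polymerase epsilon subunit that also works in chromatin, went against its list, with 96.7 CPM at 72 h of inhibitor and 57.2 at 72 h untreated (1.69-fold, 1.51 to 1.89).

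Stress genes were high in the inhibitor's S phase cells. HSPA5 was 4.33-fold higher in S phase cells at 72 h of inhibitor (4.04 to 4.64) and 2.48-fold higher in the rest, and HERPUD1 4.17-fold (3.86 to 4.50) and 2.56-fold. SEL1L, of the degradation complex, was 3.02-fold higher in S phase cells and 2.09-fold in the rest. Of 22 ER chaperone and degradation genes, 19 were higher in S phase cells at 72 h of inhibitor, 6 by more than 2-fold. CDK inhibitors and arrest genes had no common direction, with 7 of 13 higher and 6 lower and a median of 0.01. GADD45G, unlike HSPA5, had the smaller ratio in S phase cells, with a value of 15.8 in S phase cells (12.6 to 20) and 38.1 in the rest. MYC, which drives growth and G1/S genes, had 148 CPM in S phase cells at 72 h of inhibitor and 66.0 at 72 h untreated. In the rest MYC had 163 and 88.0 CPM, so this difference was shared. PLIN2, a lipid droplet coat protein, had 158 and 51.9 CPM in S phase cells, and NDRG1, a stress-induced gene, 38.2 and 4.08. S100A8, a calprotectin subunit, had 15.2 CPM in S phase cells at 72 h of inhibitor and 1598 at 72 h untreated.

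The ratio of 72 h of inhibitor to 72 h untreated differed by more than 2-fold between S phase cells and the rest for 60 genes (0.662% of 9061). It was the higher one in S phase cells for 53. Among these were TK1 and MYBL2, a factor of late G1 and G2, and 9 of 55 measured G2/M genes: AURKB, BIRC5, CCNB1, CCNB2, CENPE, DLGAP5, GTSE1, KIF2C and PTTG1. The 7 for which the ratio was lower in S phase cells were CXCL8, GADD45G, HIST1H1D, HIST1H2AH, NRAD1, PDK4 and S100A8. The G2/M list had a median of -0.28 in S phase cells and -1.03 in the rest, and 1 and 30 of its 55 genes were more than 2-fold lower.

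Cells within 1 range of scores were set side by side as an alternative chosen after the data were seen. Between scores of 5.82 and 12.8 there were 175 cells at 72 h of inhibitor, 726 in recovery and 908 at 72 h untreated. The limits were the thresholds of the 72 h inhibitor and 72 h untreated libraries. The 175 cells were thus S phase cells, while all 908 cells at 72 h untreated belonged to the rest of their library. In recovery, cells below the threshold of 7.36 belonged to the rest. These values therefore do not set S phase cells against S phase cells. Only the range was shared: the median score was 7.26 at 72 h of inhibitor, 7.16 in recovery and 9.03 at 72 h untreated, and RRM2 is itself a score gene. At 72 h of inhibitor over 72 h untreated, 45 of 93 replication and repair genes were then higher and 48 lower, with a median of -0.02. RRM2 was still 2.92-fold lower (2.67 to 3.21), with 62.5 CPM at 72 h of inhibitor and 183 at 72 h untreated. All 14 measured histone genes were lower, with a median of -1.23, and HIST1H4C had 525 CPM at 72 h of inhibitor and 1293 at 72 h untreated. HSPA5 was 4.20-fold higher, with 490.3 and 117 CPM. Recovery over 72 h untreated in this range gave a median of -0.37 for replication and repair genes, -0.49 for histones and 0.88 for ER genes, and RRM2 had 188 CPM in recovery and 183 at 72 h untreated.

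After 6 h of inhibitor, S phase cells had replication mRNA close to that at 0 h and more mRNA of early stress genes. Of 8768 genes, 251 (2.86%) were more than 2-fold higher than at 0 h in S phase cells and 21 (0.240%) lower, against 151 (1.72%) and 8 (0.0912%) in the rest. Of 97 replication and repair genes, 50 were higher after 6 h of inhibitor and 47 lower, with a median of 0.01. BRIP1 was an exception, at 86.5 CPM after 6 h of inhibitor and 41.1 at 0 h, and ORC6 had 103 and 73.1 CPM. All but 1 of 17 histone genes were lower after 6 h of inhibitor, with a median of -0.52. The G2/M list was lower in S phase cells, with 48 of 54 genes down and a median of -0.31, against 0.05 in the rest. PLK1, the mitotic kinase, had 8.93 CPM in S phase cells after 6 h of inhibitor and 22.9 at 0 h, but 48.2 and 55.8 CPM in the rest.

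PERK-ATF4 genes were higher after 6 h of inhibitor in 24 of 25 cases in S phase cells, 9 by more than 2-fold, with a median of 0.72 in S phase cells and 0.79 in the rest. Of all genes, 57.9% were higher in S phase cells. At 72 h untreated over the same 0 h library, 25 of 25 were higher in S phase cells, 6 by more than 2-fold, with a median of 0.70. The higher level was thus not particular to the inhibitor. DDIT3 had 72.6 CPM in S phase cells after 6 h of inhibitor and 18.8 at 0 h, and SESN2, a stress gene that restrains mTOR, 37.1 and 8.0. At 72 h untreated they had 68.6 and 21.7 CPM in S phase cells. HSPA5, by contrast, had 62.7 CPM after 6 h of inhibitor and 61.8 at 0 h, a ratio of 1.01 (0.910 to 1.13). ACACA was 1.66-fold higher after 6 h of inhibitor in S phase cells (1.47 to 1.88) and 1.40-fold in the rest. FOSL1, an AP-1 factor, had 179 CPM after 6 h of inhibitor and 50.3 at 0 h. For 3 genes (0.0342% of 8768) the ratio in S phase cells differed more than 2-fold from that in the rest.

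Recovery S phase cells held more RRM2, histone and mitotic mRNA than those at 72 h of inhibitor, while 64 of 94 replication and repair genes were lower. Of 8780 genes, 286 (3.26%) were more than 2-fold higher in recovery and 401 (4.57%) lower in S phase cells, against 461 (5.25%) and 295 (3.36%) in the rest. RRM2 had 243 CPM in recovery and 64.2 at 72 h of inhibitor, 3.79-fold (3.44 to 4.17), beside 1.15-fold for PCNA and 0.657-fold for TYMS. Of 94 replication and repair genes, 64 were lower in recovery and 30 higher, with a median of -0.20 in S phase cells, while the rest had a median of 0.19. Of all genes, 45.5% were higher in recovery S phase cells. All 16 measured histone genes were higher in them, 3 by more than 2-fold, with a median of 0.69, beside 1.02 in the rest. BRCA1, of homologous recombination, had 23.4 CPM in recovery and 69 at 72 h of inhibitor, and TIMELESS, of the fork protection complex, 6.02 and 18.0. G2/M genes were higher in recovery for 53 of 56, 21 by more than 2-fold, with a median of 0.77, beside 1.26 in the rest. FBXO5, which restrains the mitotic ubiquitin ligase in S and G2, had 112 CPM in recovery and 34.0 at 72 h of inhibitor. In the rest it had 72.6 and 15.1 CPM.

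Of 13 CDK inhibitor and arrest genes, 10 were higher in recovery S phase cells than in those at 72 h of inhibitor, 5 by more than 2-fold, and MYC was lower. In the rest 9 of these 13 genes were higher, 6 by more than 2-fold. GADD45G had 131 CPM in recovery and 137 at 72 h of inhibitor, and BTG1, an antiproliferative gene, 125 and 149. CDKN1A had 37.7 CPM in recovery and 8.15 at 72 h of inhibitor, and CDKN2D, the CDK4/6 inhibitor p19, had 540.0 and 109. In the rest CDKN1A had 41.3 and 4.97 CPM and CDKN2D 390.1 and 66.8. MYC had 38.6 CPM in recovery and 148 at 72 h of inhibitor, and 38.6 and 163 in the rest. Sterol genes were higher as well, with a list median of 0.90 in S phase cells and 1.07 in the rest. HMGCS1, an early enzyme of cholesterol synthesis, had 158 CPM in recovery S phase cells and 38.8 in those at 72 h of inhibitor. In the rest it had 116 and 29.3 CPM. The ratio in S phase cells differed more than 2-fold from that in the rest for 41 genes (0.467% of 8780), and 39 of these had the lower ratio in S phase cells. They included 11 of the 94 replication and repair genes: ASF1B, BLM, BRIP1, CDC45, EXO1, GINS4, ORC1, ORC6, PCLAF, POLE2 and TIMELESS.

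Against 72 h untreated, recovery S phase cells combined low replication and histone mRNA with high ER, CDK inhibitor and mitotic mRNA. The ER and CDK inhibitor list medians were close to those in the rest. Of 8928 genes, 553 (6.19%) were more than 2-fold higher in recovery in S phase cells and 813 (9.11%) lower, against 363 (4.07%) and 805 (9.02%) in the rest. Replication and repair genes were lower in recovery S phase cells for 77 of 95, 22 by more than 2-fold, with a median of -0.52. In the rest 68 were lower, 19 by more than 2-fold, with a median of -0.35. BRCA2 had 12.5 CPM in recovery and 48.8 at 72 h untreated, 3.91-fold lower. Histones had a median of -0.98 in S phase cells and -0.17 in the rest. HSPA5 was 7.85-fold higher in recovery S phase cells (7.36 to 8.38) and HERPUD1 8.25-fold (7.68 to 8.88), and 21 of 22 ER genes were higher. In the rest HSPA5 had 835 CPM in recovery and 131 at 72 h untreated, and 21 of 22 ER genes were higher too. The ER list median was 0.84 in S phase cells and 0.74 in the rest. CDKN2D had 540.0 CPM in recovery and 119 at 72 h untreated, and 12 of 13 CDK inhibitor and arrest genes were higher, 8 by more than 2-fold. In the rest 11 were higher, 8 by more than 2-fold, and the list medians were 1.26 in S phase cells and 1.28 in the rest. The G2/M list had a median of 0.57 in S phase cells and 0.16 in the rest, and PTTG1 was 3.08-fold higher in S phase cells and 1.29-fold in the rest.

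The untreated libraries differed from each other too. Of 8880 genes, 480 (5.41%) were more than 2-fold higher at 72 h than at 0 h in S phase cells and 116 (1.31%) lower, against 4.27% and 1.41% in the rest. The replication and repair lists had a median of -0.14 in S phase cells and -0.41 in the rest. CLSPN had 185 CPM in S phase cells at 72 h untreated and 380.3 at 0 h, and CCNE2 had 22.0 and 51.5. PERK-ATF4 genes had a median of 0.70, beside 0.72 for 6 h of inhibitor over the same 0 h library. For 3 genes (0.0338% of 8880) the ratio in S phase cells differed more than 2-fold from that in the rest.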

How the data were processed

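The authors deposited raw UMI counts of 36601 features for each barcode, from 5 libraries of the 10x 3′ version 3.1 kit per the labels' protocols. Per the submitters' processing notes, Cell Ranger 7.1.0 and GRCh38 were used. Which annotation release was counted, and whether introns were, is not given in the sources used here. From these counts, cells were filtered and scored, and the UMIs of S phase cells and of the rest of each library were added up and expressed as CPM. A sum of 0 was set to a floor of 3 counts. Intervals of ratios are exact (Clopper-Pearson, conditional on both counts) at the 95% level. PCR and cell sampling add error that they leave out. Doublets were not removed. Members and the 22 gene lists were chosen with earlier results of these data known. Named genes are the score genes, the 10 highest and 10 lowest outside the score of at least 20 CPM by the ratio nearest to 0 over 5 libraries, 10 per direction between libraries, up to 4 of each list, and a fixed set around ACC, ER stress and G1/S, of which a selection is printed. Genes printed because their ratio differed between S phase cells and the rest were picked by that value. The steps were tested on simulated data. Alternatives were other shares of cells, score genes, filters, weights and scalings. Software was numpy 2.4.6, pandas 2.3.3 and scipy 1.17.1 under Python 3.11.15.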

Additional observations from a re-analysis of the deposited data

Results flagged for a closer look

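Some genes had a difference between S phase cells and the rest that ran in opposite directions in libraries set against each other, beyond counting error in each library. These differences between libraries were not tested, since each group is 1 library. Of 392 measured genes of the lists, 24 were higher in S phase cells at 72 h of inhibitor and lower at 72 h untreated, and 3 the other way. For recovery and 72 h untreated these counts were 15 and 10, and for 6 h of inhibitor and 0 h untreated 5 and 11. Over all 8899 genes outside the score, 6882 were higher in S phase cells at 72 h of inhibitor, 6366 in recovery and 4974 at 72 h untreated. A lean toward higher genes at 72 h of inhibitor and in recovery was thus present over all genes. The share of all genes with opposite directions was not computed, so these counts are no result about the lists.

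Among genes named here, the log2 ratio of S phase cells to rest for HSPA5 was 0.57 at 72 h of inhibitor and 0.07 in recovery, against -0.24 at 72 h untreated. For HERPUD1 it was 0.48 at 72 h of inhibitor, against -0.22 at 72 h untreated. For XBP1, the ER stress factor, it was 0.13 at 72 h of inhibitor, with 219.5 CPM in S phase cells and 201 in the rest, against -0.15 at 72 h untreated, with 172 and 191 CPM. MANF had -0.09 in recovery, against 0.17 at 72 h untreated. The value for HSPA5 in recovery took either sign over the alternative settings. Median-of-ratios scaling would subtract 0.21 at 72 h of inhibitor and 0.14 in recovery, which would turn the sign of XBP1 at 72 h of inhibitor and of HSPA5 in recovery.

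Mitotic genes made up another group. At 72 h of inhibitor the log2 ratio was 0.57 for CCNB2, against -0.68 at 72 h untreated. CENPE, a mitotic kinesin, had 0.52 at 72 h of inhibitor, against -0.64 at 72 h untreated, and DLGAP5, a spindle protein, 0.50 against -0.61. KIF2C, a microtubule-depolymerising kinesin, had 1.1 at 72 h of inhibitor and 0.42 in recovery, against -0.16 at 72 h untreated. GTSE1 had -0.57 after 6 h of inhibitor, against 0.18 at 0 h untreated.

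CXCL8, a chemokine, had -0.86 at 72 h of inhibitor, against 0.87 at 72 h untreated, and PDK4, a kinase that inhibits pyruvate dehydrogenase, -0.37 against 1.23. EGR1 had -0.18 in recovery, against 0.25 at 72 h untreated. After 6 h of inhibitor CDKN2D had -0.12, S100A2 0.36 and S100A7 -0.12, against 0.27, -0.19 and 0.13 at 0 h untreated.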

How the results depend on the processing

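With 1 library per group no library could be left out and no spread between samples is known. No paired analysis was possible because each group is 1 library with no replicate numbers to pair. Of the main results under all alternatives, 270 stayed close to the reported value and 70 moved, and for 2 a median that lay away from 0 turned in sign. G2/M medians close to 0, at 0 h and 72 h untreated, also took either sign. For single lists between 72 h of inhibitor and 72 h untreated, 296 stayed and 9 moved. Cells of at least 20000 UMIs, an alternative chosen after the data were seen, moved none of the main results. The causes of the moves were not tested, except that fewer or more genes enter with another expression minimum. Leaving out G2/M-high cells also raises the G2/M ratio by construction. Scores in recovery rest on a median of 21.5 UMIs per S phase cell, which limits how well those cells are told from the rest.

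The G2/M median in S phase cells over rest turned to 0.04 after 6 h of inhibitor (reported -0.30) when cells high in G2/M genes were left out, and to -0.05 in recovery (reported 0.29) when MCM2, MCM5, PCNA, GINS2 and CDC6 formed the score. Leaving out G2/M-high cells gave 1.34 at 72 h of inhibitor (reported 0.69), 0.47 in recovery, 0.45 at 0 h untreated (reported 0.03) and 0.35 at 72 h untreated (reported -0.07). A score of MCM4, MCM6, TYMS, CLSPN and RRM2 gave -0.02 after 6 h of inhibitor, 1.02 at 72 h of inhibitor, 0.48 in recovery, 0.23 at 0 h untreated and 0.19 at 72 h untreated. The other 5 genes gave -0.42 at 0 h untreated and -0.38 at 72 h untreated. Median-of-ratios scaling gave 0.15 in recovery and 0.48 at 72 h of inhibitor. Taking the top 20% of cells gave 1.06 at 72 h of inhibitor, and equal weight per cell gave 0.19 at 0 h untreated. The direction of the G2/M list thus depends on how S phase cells are chosen except at 72 h of inhibitor.

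The median of the replication and repair lists was positive under every alternative run. With MCM2, MCM5, PCNA, GINS2 and CDC6 as the score it was 0.48 after 6 h of inhibitor, 0.39 in recovery, 0.43 at 0 h untreated and 0.63 at 72 h untreated. Scoring thinned cells gave 0.37 in recovery and 0.42 at 0 h untreated, median-of-ratios scaling 0.43 in recovery, and equal weight per cell 0.90 at 72 h untreated.

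The share of cells at the 0 h threshold was 5.14% after 6 h of inhibitor and 0.173% at 72 h untreated without thinning. With MCM4, MCM6, TYMS, CLSPN and RRM2 it was 11.4% after 6 h of inhibitor, 0.318% in recovery and 2.60% at 72 h untreated, and with the other 5 genes 0.664% in recovery and 3.50% at 72 h untreated.

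Of genes more than 1.5-fold higher in S phase cells in all 5 libraries (72 reported), 47 were counted under median-of-ratios scaling, 22 with a minimum of 50 CPM, 132 with no minimum, 28 with MCM2, MCM5, PCNA, GINS2 and CDC6, and 36 on thinned scores. The 1 lower gene became 0 with a minimum of 50 CPM, 0 on thinned scores, 0 with the top 5% of cells, and 10 with no minimum.

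Counts of genes more than 2-fold apart between libraries depended most on the expression minimum. With 50 CPM there were 73 higher and 7 lower genes after 6 h of inhibitor over 0 h, 90 and 105 at 72 h of inhibitor over untreated, 107 and 62 in recovery over 72 h of inhibitor, 212 and 153 in recovery over 72 h untreated, and 96 and 41 at 72 h over 0 h untreated. With no minimum the counts were 2279 and 768, 1638 and 2458, 1667 and 2481, 2083 and 3407, and 3296 and 908 for the same comparisons. Median-of-ratios scaling gave 164 higher after 6 h of inhibitor, and 197 higher and 293 lower at 72 h over 0 h untreated. Other score genes gave 405 (MCM2, MCM5, PCNA, GINS2, CDC6) and 130 (the other 5) higher after 6 h of inhibitor, and the top 5% of cells 379. Against the other untreated library there were 958 higher at 72 h of inhibitor, 1217 higher in recovery and 340 lower after 6 h of inhibitor. Totals without mitochondrial and ribosomal protein genes gave 34 lower after 6 h of inhibitor and 616 lower in recovery over 72 h of inhibitor.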

Other observations

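In a list of 16 genes of calprotectin, S100 proteins, keratins and secreted defence proteins, 12 were lower in S phase cells than in the rest at 72 h of inhibitor, 12 in recovery and 12 at 72 h untreated. Only 8 were lower at 0 h untreated and 7 after 6 h of inhibitor, with list medians of 0.01 and 0.06. In the late libraries the list medians were -0.23 at 72 h of inhibitor, -0.24 in recovery and -0.15 at 72 h untreated, beside 0.17, 0.10 and 0.03 for all genes in the same order. S100A8 had 15.2 CPM in S phase cells against 36.9 in the rest at 72 h of inhibitor, 615 against 892 in recovery and 1598 against 1812 at 72 h untreated. S100A7, psoriasin, had 73.8 against 147 CPM at 72 h of inhibitor, 1152 against 1387 in recovery and 2149.8 against 2533 at 72 h untreated. S100A2 ran the other way, with 51.6 against 28.6 CPM at 72 h of inhibitor, 56.8 against 47.1 in recovery and 56.2 against 50.4 at 72 h untreated. S100 genes are similar in sequence, so single values carry that uncertainty.

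Ferritin mRNA was lower in S phase cells as well at 72 h of inhibitor. FTH1, the ferritin heavy chain, had 18872 CPM in S phase cells there and 27248 in the rest, against 8612 and 9724 at 72 h untreated. PLIN2 was higher in S phase cells in all 5 libraries, with 158 against 118 CPM at 72 h of inhibitor, 59.8 against 41.0 in recovery and 51.9 against 37.2 at 72 h untreated. Immediate early genes had list medians of 0.11 at 72 h of inhibitor and -0.13 in recovery, and EGR1 had 93.6 against 63.6 CPM at 0 h untreated, 66.3 against 43.3 after 6 h of inhibitor and 41.0 against 46.5 in recovery. Of 13 mitochondrially encoded genes, 13 were lower in S phase cells at 0 h untreated, 12 after 6 h of inhibitor, 4 at 72 h of inhibitor, 10 in recovery and 6 at 72 h untreated. Of all 8899 genes, 4541 were lower at 0 h untreated, 4378 after 6 h of inhibitor, 2017 at 72 h of inhibitor, 2533 in recovery and 3925 at 72 h untreated. The list medians were between -0.13 and 0.03.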
